A study of Homo sapiens with 9 samples.

Results

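Full-length TET1 (TET1-FL) was set against the TET1-ALT form in HEK293T, an established kidney-derived cell line with the SV40 T-antigen. The question was whether the forms differ in their effect on DNA methylation. The comparison covers 3 TET1-FL and 3 TET1-ALT libraries of the 9 in the series. Its sites are the 58310 CCCGGG sites on chromosomes 1 to 22 that had a value in all 9 libraries, out of 382289 sites listed, 357624 of them autosomal. All groups were cells transfected with a pIRES plasmid by Lipofectamine 2000, with DNA taken after 4 days, and the 3 empty vector libraries received the same treatment without a TET1 form. No source used here gives the share of cells that took up a plasmid or how much of each TET1 form was made, and the labels number the replicates without saying whether they were separate cultures. The p-values therefore measure the spread between libraries, which may be technical.

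TET1 is a dioxygenase that oxidises 5-methylcytosine to 5-hydroxymethylcytosine and further products, a route by which DNA loses methylation. The CXXC domain is a zinc finger that binds DNA at CpGs without methylation, and full-length TET1 is known to occupy CpG islands, the CpG-dense and mostly unmethylated stretches at many promoters. The series' title concerns a TET1 isoform without this domain. The catalytic domain lies at the other end of the protein. Whether TET1-ALT lacks other parts of TET1 besides the CXXC domain was not examined. A difference between the forms therefore cannot be assigned to the CXXC domain alone.

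DREAM, the assay used, reads methylation from a pair of restriction enzymes: SmaI cuts unmethylated CCCGGG, and XmaI then cuts the methylated copies. A value is the percentage of methylated reads at 1 site. It does not show oxidised cytosine apart from methylated cytosine. Since reads come from fragments with CCCGGG at both ends, measured sites sat close together. Another listed site lay within 500 bases of 90.5% of them, against 28.1% of all listed autosomal sites, and sites on the same fragment are not independent. Values were present at 64412 to 70629 autosomal sites in the TET1-FL libraries, at 67165 to 68075 in TET1-ALT and at 60055 to 64857 with the empty vector. The labels set a minimum of 20 reads for a site, and its actual depth is unknown. Pearson correlations over sites (not independent replicates) were 0.996 to 0.997 for pairs of libraries within TET1-FL, within TET1-ALT and between them. TET1-FL replicate 3 and TET1-ALT replicate 3 stood apart from the other 4 libraries in exact values at sites under 5%. They held the same value as each other at 3311 such sites, while a pair with only 1 of them shared 580 to 1571 and a pair with neither shared 2889 to 4443. At all other sites no pair shared more than 97.

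At methylated sites every TET1-FL library had slightly lower mean methylation than every TET1-ALT library. To keep the compared libraries out of the grouping, sites were classed by their mean in the empty vector. Sites of 20 to 80% averaged 53.5%, 54.2% and 54.01% in TET1-FL replicates 1, 2 and 3 and 56.1%, 55.0% and 54.3% in TET1-ALT replicates 1, 2 and 3. All TET1-FL libraries lay below all TET1-ALT libraries, but the closest pair, TET1-FL replicate 2 and TET1-ALT replicate 3, differed by only -0.0985 points. The group means were 53.9% ± 0.354 and 55.1% ± 0.912 (SD, n = 3), a difference of -1.23 points, and the widest pair differed by -2.59 points. At sites of 80 to 95% the means were 87.5% ± 0.225 and 88.4% ± 0.427 (SD, n = 3), -0.872 points apart. Sites over 95% differed by -0.322 points and sites of 5 to 20% by -0.483 points, again without overlap of libraries. Averaged over the 58310 sites, methylation was 42.8% ± 0.136 and 43.3% ± 0.341 (SD, n = 3), a difference of -0.555 points. For each of these 5 values the two-sided exact permutation p was 0.1, the smallest that 3 against 3 libraries allow, and 0.12 after Benjamini-Hochberg adjustment over 6 tests, so none could pass 0.05. A change of this size in every cell and a larger change in a part of the cells cannot be told apart in bulk DNA.

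**Figure D1:**
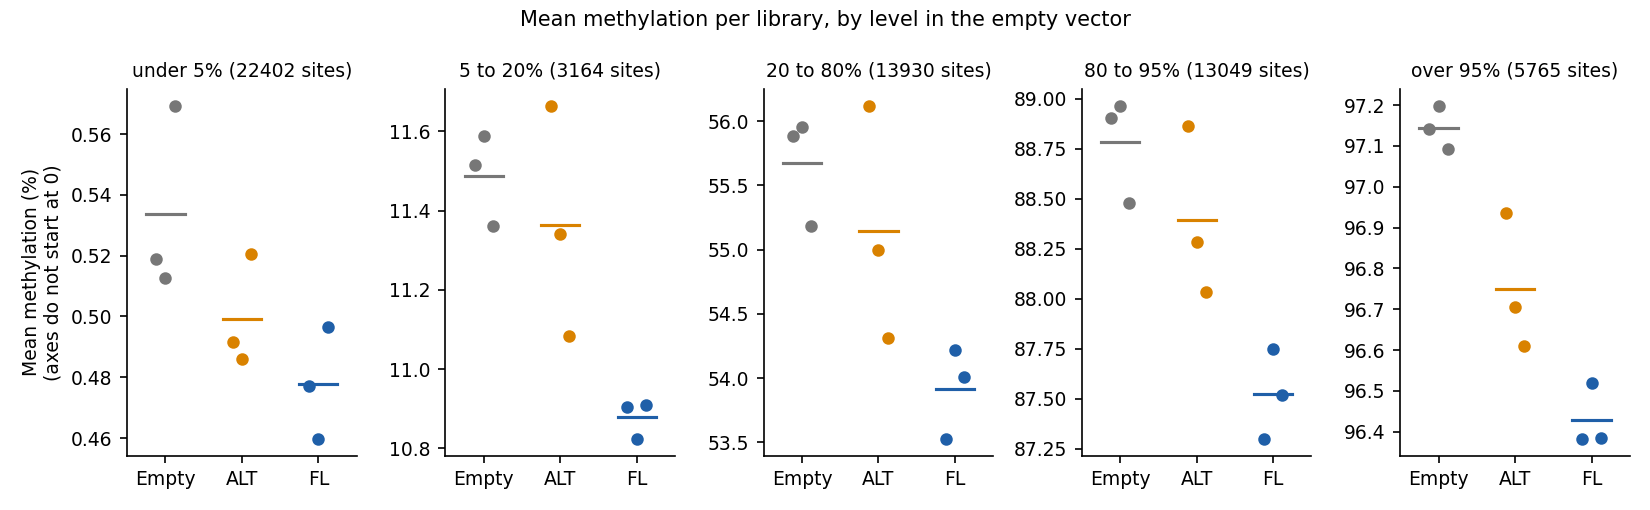
Mean methylation per library (points, in percent, with axes that do not start at 0) and group means (lines) at autosomal sites classed by their level in the empty vector. In the 4 classes of 5% or more the TET1-FL points sit below all TET1-ALT points, while under 5% the groups overlap.

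The TET1-ALT libraries were more spread than the TET1-FL libraries, and the size of the difference rested on which of them was used. TET1-ALT replicate 1 had 56.1% at sites of 20 to 80%, above the highest empty vector library (55.96%), and TET1-ALT replicate 3 had 54.3%, below the lowest (55.2%). Without TET1-ALT replicate 1 the difference between the forms was -0.738 points at sites of 20 to 80% and -0.369 points over all sites, beside -1.23 and -0.555. With TET1-FL replicate 3 and TET1-ALT replicate 3 both left out, an alternative chosen after seeing the data, these were -1.69 and -0.717 points. Against the empty vector, sites of 20 to 80% differed by -1.76 points in TET1-FL and by -0.532 points in TET1-ALT, 2 values that share the empty vector libraries. At sites over 95% these were -0.715 and -0.393 points. There the 3 TET1-ALT libraries, at 96.6 to 96.9%, lay below the empty vector libraries, at 97.09 to 97.2%, and above TET1-FL, at 96.4 to 96.5%.

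No spiked-in standard, DNA of set methylation cut in the same reactions, separated the forms. The 8 non-genomic sequences in the table, with 18 sites, were treated as the standards, although the labels speak of 5. TET1-FL was lower than TET1-ALT on average at 5 standards and higher at 3, by -0.9 to 2.35 points, and the libraries of both groups overlapped at 8 of 8. The lowest was the standard named Taq353, with 42.4%, 42.9% and 41.7% in TET1-FL and 44.0%, 42.7% and 43.0% in TET1-ALT (exact permutation p = 0.2, n = 3 each). The highest was Gpf414, with 41.1%, 45.1% and 43.7% in TET1-FL and 42.2%, 40.8% and 39.8% in TET1-ALT (exact permutation p = 0.2, n = 3 each). Single pairs of libraries differed at the standards by -2.34 to 5.27 points, each standard being a mean of 2 or 3 sites. The authors used standards to correct for enzyme efficiency, so any error in them enters every site of a library. Values corrected with standards may also hide a shift at the standards themselves. Single pairs differed there by more than the -1.23 points between the forms at sites of 20 to 80%. The overlap at the standards therefore cannot show whether libraries were shifted.

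A shift of whole libraries was examined by centring each library on its mean over sites of 80% or more. Those sites themselves differed between the forms, by -0.872 points at 80 to 95% and -0.322 points over 95%. Centring thus also removes any difference of the forms that they share, and it cannot tell such a difference from a library shift. It adds 0.704 points to TET1-FL relative to TET1-ALT at every site, unmethylated ones included. The difference at sites of 20 to 80% was then -0.523 points, and the libraries of the 2 forms overlapped (exact permutation p = 0.3, n = 3 each). All sites together (0.149), sites of 5 to 20% (0.220) and sites under 5% (0.682) had positive differences. Sites of 80 to 95% (-0.169) and over 95% (0.382) cannot be read here, because centring sets their joint mean difference to 0. The separation at sites of 20 to 80% therefore held on the authors' scaling and not after centring. At sites under 5%, of 5 to 20% and over all sites, the added 0.704 points exceed the differences before centring (-0.0215, -0.483 and -0.555). Their turn to positive follows from the construction and cannot show whether the direction holds.

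The difference depended on how methylated a site was. In bins of 10 points of empty vector methylation it was -0.0379 points at 0 to 10%, -0.61 at 10 to 20% and -0.858 at 20 to 30%. It was -1.35 points at 40 to 50%, -1.24 at 50 to 60% and -1.40 at 60 to 70%, then -1.25 at 70 to 80%, -1.04 at 80 to 90% and -0.503 at 90 to 100%. Intermediate sites thus had the larger differences in points. In relation to the TET1-ALT level the order was different, as TET1-FL had 95.7% of it at 0 to 10%, 97.8% at 60 to 70% and 99.5% at 90 to 100%. The 30 to 40% and 50 to 60% bins had overlapping libraries (exact permutation p = 0.2, n = 3 each), since TET1-ALT replicate 3 lay within the TET1-FL range there, and the other 8 bins had none. Without TET1-ALT replicate 1 the bins of 40 to 50% and 60 to 70% differed by -0.789 and -0.918 points.

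**Figure D2:**
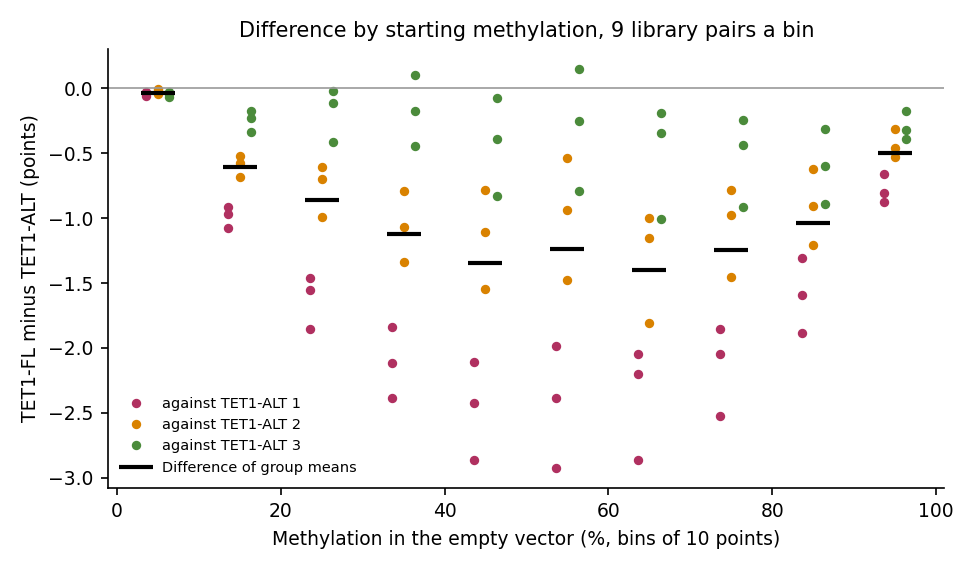
Difference of TET1-FL from TET1-ALT in percentage points for each of the 9 pairs of libraries (points, coloured by the TET1-ALT library) and for the group means (lines), by empty vector methylation in bins of 10 points. The difference is near 0 in the lowest bin and about -1.4 points at 40 to 50% and 60 to 70%, and from 10% upwards pairs with TET1-ALT replicate 3 lie nearest to 0 on average.

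Sites that were unmethylated in the empty vector, which include the kind of DNA a CXXC domain binds, had overlapping libraries, but the overlap depended on the libraries and sites used. The 22402 sites under 5% averaged 0.477%, 0.460% and 0.497% in TET1-FL and 0.491%, 0.486% and 0.521% in TET1-ALT. The ranges overlapped, and the difference of -0.0215 points (pairwise -0.0608 to 0.0107) had an exact permutation p of 0.3 (n = 3 each). Without TET1-ALT replicate 3 it was -0.0109 points and without TET1-FL replicate 2 it was -0.0124 points. Leaving out both libraries that stood apart here, replicate 3 of each form, gave -0.0202 points with TET1-FL wholly below TET1-ALT (exact permutation p = 0.333, the smallest that 2 against 2 libraries allow). Sites with a value in at least 2 libraries of each group also had no overlap, at -0.0232 points (exact permutation p = 0.1, n = 3 each). The medians over sites differed by -0.00333 points (exact permutation p = 1, n = 3 each). Among them the 9098 sites with at most 2 other listed CCCGGG sites within 1000 bases averaged 0.615% ± 0.00993 in TET1-FL and 0.640% ± 0.0147 in TET1-ALT (SD, n = 3), without overlap (exact permutation p = 0.1). The 3416 sites with 6 or more such neighbours averaged 0.381% ± 0.0364 and 0.396% ± 0.0316 (SD, n = 3), and the libraries overlapped (exact permutation p = 0.5). All these levels are near 0, with little room to fall. At the least methylated standard, La248 (6.65% in TET1-FL, a mean of 2 sites), single pairs of libraries differed by -0.615 to 0.745 points. Whether the correction with standards adds differences of the size seen under 5% was not tested.

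Local CCCGGG density was used to ask whether the forms differed more in CpG-dense DNA. Here and in the next 3 comparisons, sites of 20 to 95% in the empty vector were used, and each group of sites was weighted to the same spread of methylation levels. Sites with 0 to 2 neighbours within 1000 bases differed by -1.12 points, those with 3 to 5 by -0.912 points and those with 6 or more by -0.852 points. The TET1-FL libraries lay below the TET1-ALT libraries in the first 2 groups and overlapped them in the third, where TET1-FL had 70.3%, 70.85% and 70.2% and TET1-ALT had 71.9%, 71.3% and 70.7%. The densest and sparsest groups were 0.265 points apart in their difference (pairwise -0.165 to 0.555, exact permutation p = 0.3, adjusted over 4 such contrasts 0.4). Without TET1-FL replicate 3 the contrast was 0.428 points (exact permutation p = 0.1, the smallest that 2 against 3 libraries allow), and without replicate 3 of both forms it was 0.435 points (exact permutation p = 0.333, again the smallest possible). A positive value means a smaller difference between the forms in denser DNA.

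Distance to the nearest unmethylated site was used to set the borders of unmethylated DNA against sites far from it. Sites up to 500 bases from a site under 5% differed by -1.16 points, with 69.7 to 69.9% in TET1-FL and 70.6 to 71.5% in TET1-ALT. The differences were -1.06 points beyond 500 and up to 2000 bases, -1.04 up to 10000 bases and -1.06 farther away, over 1690, 4225 and 19879 sites. Near and far sites differed by -0.0926 points (pairwise -0.479 to 0.296, exact permutation p = 0.6, adjusted 0.6). The sign of this small contrast turned without weighting (0.00174), without TET1-ALT replicate 3 (0.0212) and without replicate 3 of either form (0.0524).

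Position on the chromosome and the number of CCCGGG sites per Mb were examined after the values were seen. The 2341 sites within 1 Mb of the first or last listed site of a chromosome differed by -0.933 points and the 16591 sites more than 5 Mb inside by -1.07 points. This contrast of 0.14 points had libraries apart (pairwise 0.0246 to 0.251, exact permutation p = 0.1, adjusted 0.4). Of 4 groups of megabases, the one with the fewest listed sites (20 to 182 per Mb) differed by -1.10 points and the one with the most (455 to 975 per Mb) by -1.02 points, with an exact permutation p of 0.3 for the contrast (adjusted 0.4, n = 3 each). Against the empty vector the groups with the fewest and the most differed by -0.263 and -0.581 points in TET1-ALT and by -1.36 and -1.60 points in TET1-FL.

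**Figure D3:**
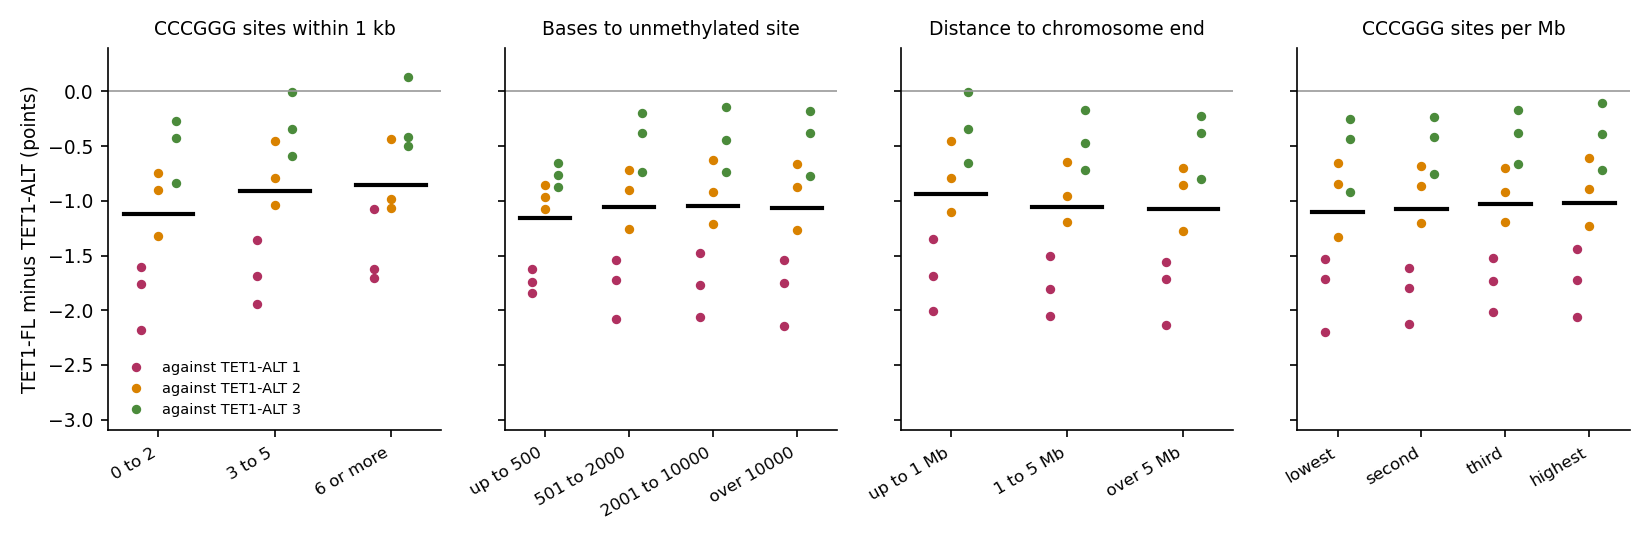
Difference of TET1-FL from TET1-ALT in percentage points at sites of 20 to 95%, weighted to equal methylation levels, for 9 library pairs (points, coloured by the TET1-ALT library) and the group means (lines). The group means lie between -1.16 and -0.852 points in every group of sites by density, distance, chromosome position and sites per Mb, and points above 0 occur against TET1-ALT replicate 3 only.

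Every autosome showed the difference. At the 26979 sites of 20 to 95%, TET1-FL had the lower mean on 22 of 22 autosomes, and libraries did not overlap on 20 of them. Chromosome 13 differed most (-1.23 points) and chromosome 3 least (-0.967). On chromosome 6 TET1-FL had 70.7%, 71.5% and 71.1% and TET1-ALT 72.8%, 71.9% and 71.4%. On chromosome 9 the values were 69.0%, 69.8% and 69.5% in TET1-FL and 71.3%, 70.3% and 69.8% in TET1-ALT. On both, TET1-ALT replicate 3 lay within the TET1-FL range. TET1-ALT replicate 1 was above all empty vector libraries on 13 autosomes. Without it the difference was still negative on 22 of 22, at -0.854 to -0.591 points. Chromosomes share their libraries and are not replicates, so the count adds no independent evidence. With libraries centred, 4 autosomes were without overlap.

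Windows of 1 Mb with at least 10 such sites showed how far the difference was shared across the genome. Of 678 windows, 649 (95.7%) were lower in TET1-FL, with a median of -1.08 points and with 90% of windows between -2.12 and -0.0543 points. In limma, fitted to all 9 libraries, 0 of 678 windows (0.0%) passed an adjusted p of 0.05, the smallest being 0.154. At an unadjusted p under 0.05 there were 167 windows lower in TET1-FL (24.6%), on 22 chromosomes, and 1 higher (0.147%). The 167 became 67 without TET1-ALT replicate 1, 73 without TET1-FL replicate 1 and 265 without TET1-ALT replicate 3. In the last case 7 windows were called by limma (Benjamini-Hochberg adjusted p = 0.0431 for each), with TET1-FL lower in 7 of 7 and differences of -3.82 to -2.82 points. With libraries centred, 75.4% of windows were lower, with a median of -0.374 points and 41 lower and 6 higher at the unadjusted threshold.

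**Figure D4:**
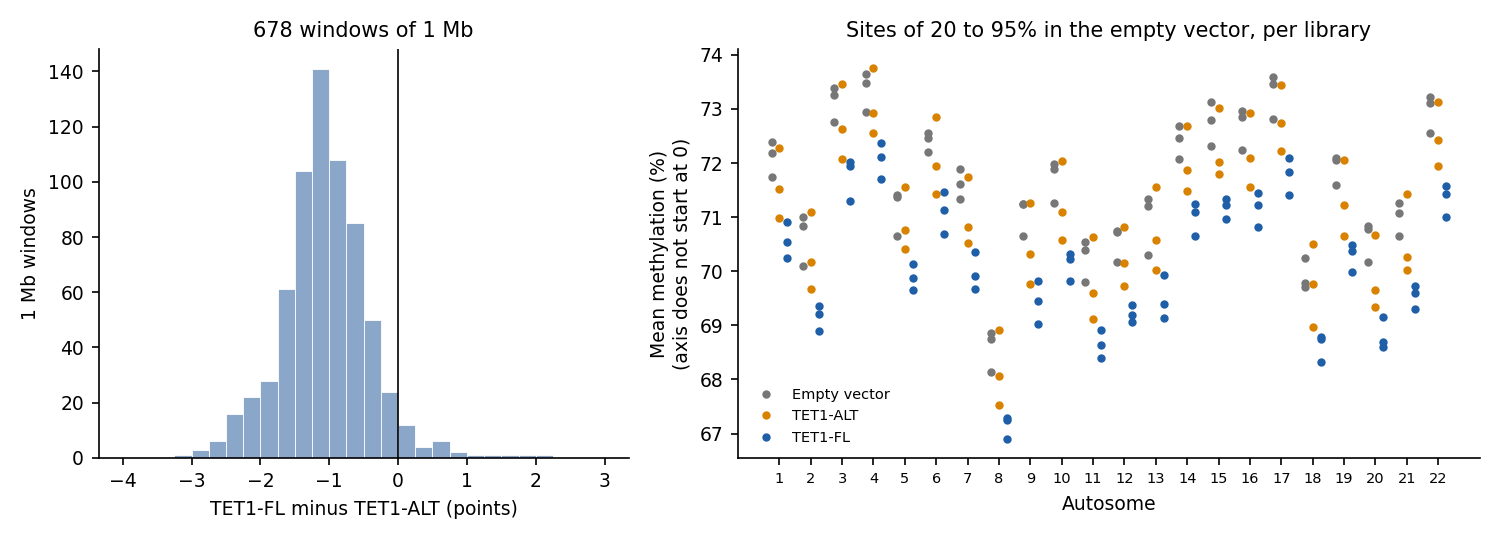
Left, the number of 1 Mb windows by their difference of TET1-FL from TET1-ALT in percentage points, of which 649 of 678 lie below 0. Right, mean methylation in percent of sites of 20 to 95% on each autosome for every library (the axis does not start at 0), with TET1-FL the lowest group on all 22.

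Of the windows, the lowest limma p belonged to chromosome 1 from 203000001 to 204000000 (hg19), whose 13 sites had 71.2%, 70.2% and 71.5% in TET1-FL and 73.3%, 73.4% and 73.5% in TET1-ALT. The difference was -2.45 points (SE 0.558, limma adjusted p = 0.154). On chromosome 11 from 120000001 to 121000000, 19 sites had 67.1%, 67.5% and 66.7% in TET1-FL and 70.9%, 70.2% and 68.7% in TET1-ALT. The windows on chromosome 6 from 42000001 to 43000000 and on chromosome 2 from 127000001 to 128000000 differed by -2.41 and -2.32 points. In these 4 windows the libraries of the 2 forms did not overlap, which follows largely from their choice by low p. Over all 678 windows, 229 were lower in TET1-FL without overlap. The empty vector means of the 4, at 72.9%, 70.7%, 80.6% and 74.3%, were nearer to TET1-ALT. Over all sites of 20 to 95% the empty vector mean was also nearer to TET1-ALT, with 71.7% beside 71.2% in TET1-ALT and 70.2% in TET1-FL. The only window higher in TET1-FL at an unadjusted p under 0.05 was on chromosome 1 from 46000001 to 47000000, with 77.2% ± 1.00 against 75.4% ± 1.28 (SD, n = 3) and overlapping libraries. Next by p were windows on chromosome 8 from 48000001 to 49000000 (57.9% against 55.8%), chromosome 10 from 129000001 to 130000000 (68.6% against 67.04%) and chromosome 21 from 9000001 to 10000000 (48.3% against 46.8%). In the windows on chromosomes 8 and 21 the empty vector, at 53.2% and 44.3%, was below both forms.

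Clusters of CCCGGG sites, at least 3 measured sites with neighbours at most 500 bases apart, stood in for CpG-dense regions, as no island annotation was used. Of 5848 clusters, 2738 averaged under 5% in the empty vector. Their mean was 0.516% ± 0.0311 in TET1-FL and 0.544% ± 0.0266 in TET1-ALT (SD, n = 3), with overlapping libraries (exact permutation p = 0.4), and 57.7% of them were lower in TET1-FL. The 1466 clusters of 20 to 80% averaged 53.4%, 53.9% and 53.6% in TET1-FL and 55.2%, 54.4% and 54.0% in TET1-ALT, a difference of -0.881 points without overlap, and 79.9% of them were lower. The 1006 clusters of 80 to 95% differed by -0.676 points. In limma 0 of 5848 clusters (0.0%) passed an adjusted p of 0.05, the smallest being 0.799. At an unadjusted p under 0.05, 290 clusters (4.96%) were lower in TET1-FL and 62 (1.06%) higher. The lower ones were 102 of the 1466 clusters of 20 to 80%, 79 of the 1006 of 80 to 95% and 80 of the 2738 under 5%. In the same classes 11, 7 and 44 clusters were higher.

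With libraries centred, 40 clusters lower and 2144 higher were called, 2104 of the latter under 5%, where the added constant exceeds the methylation itself. On the deposited scale the lowest limma p belonged to 4 sites on chromosome 16 from 31548682 to 31549142, with 71.1%, 73.2% and 72.2% in TET1-FL and 76.5%, 79.5% and 80.2% in TET1-ALT, and 76.4% ± 0.685 (SD, n = 3) with the empty vector. The next methylated ones lay on chromosome 16 from 1009393 to 1010072 (79.97% against 83.6%) and on chromosome 6 from 3626027 to 3626537 (63.4% against 68.2%). Among clusters higher in TET1-FL, 3 sites on chromosome 3 from 185379350 to 185379490 had 66.6%, 70.2% and 70.8% in TET1-FL and 61.8%, 58.0% and 61.0% in TET1-ALT. There the empty vector had 69.0% ± 3.44 (SD, n = 3), close to TET1-FL. Most of the difference between the forms in this cluster came from its last site, at 185379490, with 22.1 points. The 2 measured neighbours of that site differed by 2.36 points. A cluster of 4 sites on chromosome 9 from 19127338 to 19127853 had 27.2% against 24.9%. The other 3 of the 8 clusters with the lowest p, on chromosome 1 from 226496404 to 226497162 and from 52607583 to 52608375 and on chromosome 8 from 47063935 to 47064560, were under 1% in every library.

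No single site was called. In limma 0 of 58310 sites (0.0%) passed an adjusted p of 0.05, and the smallest was 0.119. At an unadjusted p under 0.05, 2606 sites (4.47%) were lower in TET1-FL and 637 (1.09%) were higher. The lower ones made up 6.38% of sites of 20 to 80%, 6.85% of sites of 80 to 95% and 1.80% of sites under 5%, while the higher ones made up 0.940%, 0.981% and 1.19%. Centring turned this split to 953 lower and 18080 higher, 17247 of the latter under 5%, and moved the median over all sites from -0.0667 to 0.637 points. Both follow largely from the 0.704 points that centring adds at every site. The libraries of TET1-FL lay below all TET1-ALT libraries at 4282 sites (7.34%) and above them at 1129 (1.94%). At sites of 20 to 80% these shares were 11.1% and 1.96%, and the median site differed by -1.25 points, with 90% of sites between -5.91 and 3.45 points.

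Of the 58310 sites, 61 lower and 25 higher in TET1-FL had separate libraries and group means at least 10 points apart. Without the 10-point minimum, 4282 (7.34%) lower and 1129 (1.94%) higher sites had separate libraries, as given above. The 61 lower ones lay on 20 chromosomes, and 48 of them were sites of 20 to 80%. The empty vector mean fell between the 2 forms at 46 of the 61 lower and 21 of the 25 higher sites. The choice of sites with the forms far apart by itself favours an empty vector mean between them. No share over all sites is given for comparison, so these counts are descriptions only. The empty vector mean was nearer to TET1-FL than to TET1-ALT at 25 of the 61 and 12 of the 25. Other measured sites within 1000 bases, of any methylation level, were averaged into 1 difference per neighbourhood. Around the lower sites these had a median of -0.981 points, and 34 of 46 were also lower. Around the higher sites the median was -0.725 points, and 8 of 19 were also higher. Of single sites at all levels, 60.4% were lower and 36.9% higher. At 20 to 80%, 69.6% of single sites were lower, with a median of -1.25 points. Neighbourhood averages and single sites are unlike measures, so these shares are not compared. The 61 and 25 sites were picked for large differences and their neighbours were not, so the sizes are not compared.

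Among the lower sites, the one on chromosome 12 at 49660557 (hg19) had the lowest limma p, with 80.3%, 80.6% and 75.1% in TET1-FL and 89.8%, 96.7% and 92.3% in TET1-ALT (difference -14.3 points, SE 2.19, limma adjusted p = 0.837). With the empty vector it had 88.5% ± 1.78 (SD, n = 3), between the forms and nearer to TET1-ALT. On chromosome 11 the site at 129686211 had 81.5%, 78.7% and 85.7% in TET1-FL and 94.7%, 93.8% and 90.5% in TET1-ALT, and 94.7% ± 0.472 (SD, n = 3) with the empty vector. On chromosome 16 the site at 31549142, the last of the cluster above, had 47.4%, 59.5% and 55.4% in TET1-FL and 68.2%, 79.0% and 74.9% in TET1-ALT. Its 3 measured neighbours within 1000 bases differed by -2.05 points. On chromosome 1 the site at 1561521 had 79.03% ± 3.27 in TET1-FL and 89.4% ± 2.48 in TET1-ALT (SD, n = 3). At the other 4, on chromosome 5 at 149601939, chromosome 15 at 90896293, chromosome 22 at 49993770 and chromosome 1 at 205424939, TET1-FL had 25.9 to 34.6% and TET1-ALT 39.6 to 46.4%. The empty vector was nearer to TET1-FL at those on chromosome 5 (31.8%, beside 30.9% in TET1-FL and 41.5% in TET1-ALT) and chromosome 15 (34.5%, beside 30.1% and 43.4%).

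Among the higher sites, the one on chromosome 1 at 33356706 had 27.0%, 23.7% and 25.9% in TET1-FL and 8.45%, 12.7% and 17.6% in TET1-ALT, beside 14.9% ± 3.38 (SD, n = 3) with the empty vector. On chromosome 1 the site at 46914114 had 85.9%, 90.1% and 87.5% against 79.8%, 68.2% and 73.3%. It lies inside the only window higher in TET1-FL at an unadjusted limma p under 0.05. On chromosome 17 at 14207415 the empty vector (89.8% ± 2.32, SD, n = 3) was close to TET1-FL (91.4%) and TET1-ALT was lower (79.3%). Given as empty vector, TET1-FL and TET1-ALT, the site at 131618040 of chromosome 12 had 75.55%, 78.4% and 65.7%. In the same order, 40554741 of chromosome 6 had 28.1%, 33.0% and 17.7%, and 139720827 of chromosome 9 had 84.2%, 86.0% and 75.7%. The sites on chromosome 22 at 17517404 and chromosome 3 at 185379490 had 66.1% and 64.25% in TET1-FL, 45.9% and 42.2% in TET1-ALT and 56.7% and 59.7% with the empty vector. The limma adjusted p of these 8 higher sites was 0.837 to 0.839, so none is separated from the spread between libraries.

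**Figure D5:**
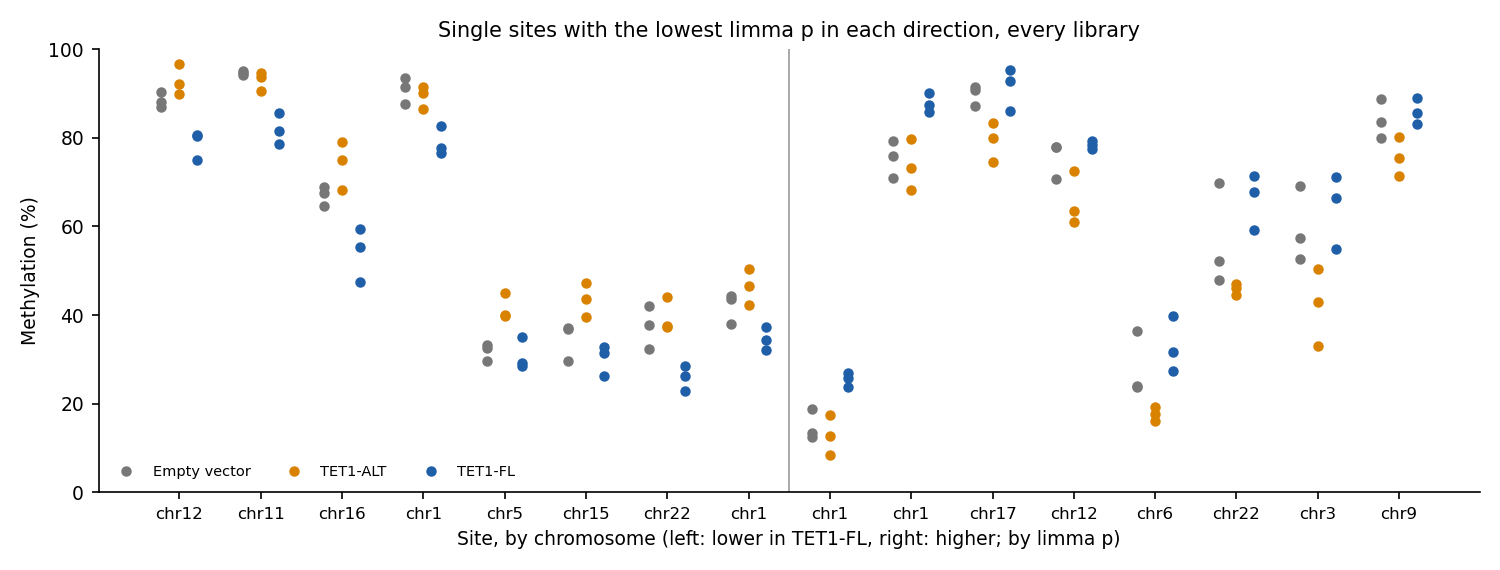
Methylation in percent of the 8 sites lower (left) and 8 sites higher (right) in TET1-FL with the lowest limma p among sites at least 10 points apart, labelled by chromosome, with 1 point per library. The sites were picked for separate TET1-FL and TET1-ALT libraries, so their separation is not a result, and the empty vector points lie nearer to TET1-ALT at some sites and nearer to TET1-FL at others.

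Whether sites differed among themselves in a repeatable way was examined with differences that share no library. TET1-FL minus TET1-ALT was taken in 1 pair of libraries and again in a second pair made of other libraries, after removing the mean of each 5-point methylation bin. Over 26979 sites of 20 to 95% the 18 such comparisons had Pearson correlations across sites from -0.0169 to 0.0237, with a median of 0.00406. Over 2472 clusters of the same range the correlations were -0.0186 to 0.0743 (median 0.0222), and over 678 windows of 1 Mb they were -0.068 to 0.127 (median -0.00882). These are descriptions across sites that share fragments and libraries. A site's departure from the general difference in 1 pair of libraries therefore told almost nothing of its departure in another, at each of these scales. Each difference rested on single libraries of unknown depth. At sites of 20 to 80% the median SD between libraries of the same form was larger than the median difference between the forms. Spread between libraries alone can bring such correlations near 0, so they cannot show whether repeatable differences between sites exist. How large a repeatable difference would have been detected was not tested.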

How the data were processed

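Per the labels, DNA with spiked-in standards was cut with SmaI and then XmaI, size selected and amplified with 18 PCR cycles, and a value required at least 20 reads. The deposited values are percentages, which per the labels' design text the authors computed as methylated reads over all reads and corrected with the standards. They named sites on hg19, per the submitters' processing notes. Aligner and methylation caller: not given in the sources used here.

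limma 3.58.1 in R 4.3.3 (intensity trend, robust moderation, Benjamini-Hochberg over all features of a kind) was fitted to the percentages of all 9 libraries without a replicate term, and tested on simulated data. Means per library were compared with two-sided exact permutation tests. Differences between single libraries are given as pairwise ranges. Weighted values were standardised to the spread of sites over 5-point bins of empty vector methylation. Depth is unknown, so no interval that needs it is given.

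Sites and windows were named by lowest limma p, 8 sites and 4 regions a direction, the sites only where libraries were separate and means at least 10 points apart, at most 1 in 1000 bases. No annotation of hg19 was used, so genes are not named. The comparison, its groups and these lists were chosen with earlier results of these data known. Chromosome ends, sites per Mb, neighbours of sites far apart, the omission of both libraries numbered 3 and correlations without shared libraries were added after the values were seen. Alternatives are given in the closing section.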

Additional observations from a re-analysis of the deposited data

How the results depend on the processing

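Leaving out each library in turn, the TET1-FL minus TET1-ALT difference over all sites ranged from -0.705 to -0.369 points, and from -1.64 to -0.738 at sites of 20 to 80%, -1.05 to -0.637 at 80 to 95%, -0.393 to -0.229 over 95%, -0.623 to -0.332 at 5 to 20% and -0.0309 to -0.0109 under 5%. The density contrast ranged from 0.179 to 0.428 points, the latter without TET1-FL replicate 3 and with separate libraries, the distance contrast from -0.203 to 0.0212, windows called lower from 0 to 7, and autosomes without overlap from 20 to 22. Without weighting the distance contrast was 0.00174, and without replicate 3 of both forms 0.0524. Centring on sites of 80% or more gave -0.523 points with overlapping libraries at 20 to 80% (exact permutation p = 0.3). With it, 4 autosomes were without overlap, and 40 clusters were called lower and 2144 higher. Values over all sites (0.149), under 5% (0.682) and at 5 to 20% (0.220) turned positive because the construction adds 0.704 points to every site. Those at 80 to 95% (-0.169) and over 95% (0.382) cannot be read, as centring sets their joint mean difference to 0. With a replicate block 0 sites, windows and clusters were called in limma, and 165 windows were lower at an unadjusted p under 0.05, beside 167. The labels only number the replicates, and deviations of same-numbered TET1-FL and TET1-ALT libraries correlated at -0.015 to 0.0135. Among the values recomputed for the main results, 216 kept their direction and side of the threshold, 7 reversed and 4 moved. Some of the 216 could not change, such as the difference over all sites (-0.555 points) when an empty vector library is left out. The count is therefore no measure of robustness. Counts at an unadjusted p under 0.05 ranged over the alternatives from 57 to 2856 sites lower (2606 as reported) and 28 to 18080 higher (637), 41 to 265 windows lower (167) and 0 to 6 higher (1), and 91 to 415 clusters lower (290) and 33 to 2465 higher (62). The 57 and 28 sites come from the minimum difference of 10 points, a stricter count of the same fit. Centring gave the 18080 sites, the 41 and 6 windows and the 91 and 2465 clusters. In all other settings 2144 to 2856 sites were lower and 521 to 820 higher. The number of features tested differed between some settings. Sites under 5% were without overlap when sites measured in at least 2 libraries a group were used (-0.0232 points) and without replicate 3 of both forms (-0.0202). The alternatives covered classes from all 9 libraries, sites measured in at least 2 libraries a group, medians, ratios, a log scale, plain limma, 2 groups in the fit, 100 kb windows, wider clusters and a minimum difference. The percentages carry no read depth, so a stricter coverage minimum could not be tried.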
